A study of Mus musculus with 21 samples.

Results

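Bpifa1, Bpifb1, Bpifb3, Bpifb4, Bpifb6, Obp1a and Obp2a belong to gene families with secreted members in the nasal lining. Their RNA levels are described here across sorted cell fractions of the mouse main olfactory epithelium. Secretion of the proteins was not measured. The 7 genes were chosen by name: 5 belong to the BPI-fold family and 2 are odorant-binding proteins. All 7 were present in both deposited tables, which held 23587 and 22918 genes after rows with spreadsheet-damaged names were removed. The level is TPM (transcript abundance per length), which is scaled for transcript length and library size, so levels of different genes can be set side by side.

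Every mouse carried a tetracycline-responsive transgene with mCherry, tetO-HyperTRIBE_mCherry (HT below) or tetO-Mex3a_HyperTRIBE_mCherry (MexHT below). HyperTRIBE is an RNA-editing domain that marks the RNAs contacted by the protein it is fused to, and Mex3a is an RNA-binding protein. With both gg8tTA and OMPtTA as drivers, which act in immature and in mature olfactory sensory neurons (OSN), the MexHT mice gave 6 libraries of OSN and 5 of mCherry-negative cells and the HT mice 3 of each. With gg8tTA alone there were 2 MexHT OSN libraries, labelled as immature OSN, and 2 MexHT mCherry-negative libraries. Mice without a transgene were not analysed here, and the labels used here give no age. Per the labels, the mCherry-negative cells came from the same mouse as the OSN library of the same number. However, Xist and Y-linked transcripts were both at 1 TPM or more in 14 of the 21 libraries, so whether a library holds 1 mouse or a pool was not settled here, and "mouse" below means such a numbered pair. The mCherry-negative libraries hold every cell that did not carry mCherry, not one cell type. The gg8tTA table was scaled apart from the other and its library names carry another date, so tests were made within a table only.

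BPI-fold proteins have the lipid-binding fold of BPI (bactericidal/permeability-increasing protein), and some secreted members are part of the mucosal defence of the airways, mouth and nose. Odorant-binding proteins are small lipocalins, barrel-shaped carriers of hydrophobic ligands, that are secreted into nasal mucus. In the olfactory mucosa the mucus is made largely by Bowman's glands below the epithelium and by glands of the septum and lateral wall, while the OSN themselves are the cells whose cilia lie in it. In bulk libraries RNA of other cells cannot be told apart from RNA of the neurons, nor fewer cells of a type from less RNA per cell.

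The 5 BPI-fold genes lie in one cluster of 13 related genes on chromosome 2 (chr2:153875045-154320644, GRCm38.p6), all on the plus strand, that spans 445.6 kb. Bpifb6 (chr2:153900388-153912795), Bpifb3 (chr2:153918198-153932996) and Bpifb4 (chr2:153938217-153963852) are direct neighbours within 63.5 kb, with gaps of 5.4 and 5.2 kb between them. Bpifa1 (chr2:154142880-154149217) lies 179 kb beyond Bpifb4, and Bpifb1 (chr2:154190818-154220343) 41.6 kb beyond Bpifa1. Obp2a (chr2:25697577-25703326, plus strand) is on the same chromosome far from this cluster and next to its relative Obp2b. Obp1a (chrX:78085505-78091374, minus strand) is on the X chromosome. No other gene of the GENCODE vM21 annotation overlaps any of the 7. Obp2a shares 75.8% of its bases with Obp2b over 707 aligned transcript bases, and Obp1a shares 73.7% with Obp1b over 754. Obp1b was not analysed here, and reads that fit both copies of a pair could be assigned to either.

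The sequences just before the transcription starts are shown for the 3 neighbouring genes that were high together in mCherry-negative cells, and for the 3 genes with a TATA box. Each runs 5′ to 3′ on the strand of the gene and ends at the last base before the start that the RefSeq promoter table gives (GRCm38.p6). For Bpifb4 that start (base 153940862) and for Obp2a (base 25700074) lie inside the gene spans given above, downstream of the first base of the span, so these windows are not upstream of the whole gene. The Obp2a sequence ends earlier, where GENCODE already places an exon. Capitals mark matches to TATAAA (the TATA box) or to CCAAT, whose reverse complement reads ATTGG.
Bpifb6, chr2:153900238-153900387: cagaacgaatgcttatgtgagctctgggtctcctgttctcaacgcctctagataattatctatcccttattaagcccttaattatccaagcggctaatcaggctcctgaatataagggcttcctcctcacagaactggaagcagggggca
Bpifb3, chr2:153918048-153918197: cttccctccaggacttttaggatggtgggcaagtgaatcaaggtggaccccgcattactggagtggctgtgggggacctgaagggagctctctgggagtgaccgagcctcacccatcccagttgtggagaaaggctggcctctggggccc
Bpifb4, chr2:153940712-153940861: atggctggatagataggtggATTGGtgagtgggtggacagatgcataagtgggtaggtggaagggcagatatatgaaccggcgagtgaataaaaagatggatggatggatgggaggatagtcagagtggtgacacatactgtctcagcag
Bpifa1, chr2:154142730-154142879: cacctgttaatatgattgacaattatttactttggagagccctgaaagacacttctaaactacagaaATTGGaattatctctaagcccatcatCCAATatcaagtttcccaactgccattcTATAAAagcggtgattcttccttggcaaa
Obp1a, chrX:78091375-78091524: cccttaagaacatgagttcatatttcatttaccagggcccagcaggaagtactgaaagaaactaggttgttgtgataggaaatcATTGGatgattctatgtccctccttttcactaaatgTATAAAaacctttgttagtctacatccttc
Obp2a, chr2:25699924-25700042: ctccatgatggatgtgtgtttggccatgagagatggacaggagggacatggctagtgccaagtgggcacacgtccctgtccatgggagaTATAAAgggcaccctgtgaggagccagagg

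In the 150 bases before the start, TATAAA stood 29 to 24 bases upstream in Bpifa1 and 30 to 25 bases upstream in Obp1a. In Obp2a it stood 61 to 56 bases before the RefSeq start, which is 30 bases before the start that GENCODE places 31 bases further upstream. The windows of Bpifb6, Bpifb3, Bpifb4 and Bpifb1 held no TATAAA on either strand. Of 32851 promoter windows of this length in RefSeq, 7.57% held TATAAA on either strand, and 1.75% held it on the strand of the gene with its first base 35 to 25 bases before the start. CCAAT, on either strand, was found in Bpifa1, Bpifb4 and Obp1a and in 24.5% of all windows. TGTTTAC (forkhead), ACAATGG (SOX), CAGCTG (E-box) and CCGGAAG (ETS) were searched on both strands and had no match in the windows of the 7 genes, against 1.8%, 1.85%, 8.39% and 5.52% of all windows. No marked match overlaps another. The GC share of the windows was 36.7% for Bpifa1 and 37.3% for Obp1a, where 6.6% and 7.3% of all windows were lower, and 46.7% to 60.7% for the other 5 genes, with a median of 54% over all windows.

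The libraries held 7425287 to 15180717 counts each, recovered from the TPM values, and 13917 to 18006 genes reached 1 TPM. The sorted fractions were mixed by their markers. The summed TPM of 12 mature OSN genes was 3385 to 8314 in MexHT OSN and 975.1 to 9259 in MexHT mCherry-negative libraries, and 12020 to 17720 against 7081 to 14410 in HT. The connective tissue and vessel genes, 6 in number and none at 0, summed to 11300 to 23720 TPM in MexHT mCherry-negative and 129.5 to 246.7 in MexHT OSN libraries. In HT they summed to 7885 to 18630 TPM against 95 to 327.6. The 10 immune cell genes, none at 0, summed to 5430 to 6939 against 386.4 to 683.4 TPM in MexHT and 2879 to 6060 against 1297 to 5244 in HT. They did not move as one in HT: 3 were called higher in OSN and 2 lower, against 2.18% and 9.11% of all genes. C1qa, for 1, averaged 31 TPM ± 12.3 in HT mCherry-negative and 432 ± 363.6 in HT OSN libraries. The part of any of these other cells in the results below was not tested.

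Summed over the 7 genes, the level was 2047 to 5530 TPM in MexHT mCherry-negative and 86.3 to 381.7 in MexHT OSN libraries, and 1192 to 2003 against 100.5 to 273.2 TPM in HT. The make-up of this sum differed between fractions. Bpifb3 was first in the mCherry-negative means, with 1621 TPM ± 676 (SD, n = 5) in MexHT and 710 ± 244 (n = 3) in HT. Bpifb4 and Bpifb6 followed, and Bpifb3 was above Bpifb4 and Bpifb4 above Bpifb6 in all 8 of these libraries. Obp2a, Bpifa1 and Obp1a came next, and their order overlapped: Bpifb6 was above Obp2a in 4 of 5 MexHT libraries and Bpifa1 above Obp2a in 1 of 3 HT libraries. Bpifb1 was last everywhere among the mCherry-negative libraries. In OSN the order opened with Bpifa1, at 73.4 TPM ± 29.2 (n = 6) in MexHT and 128 ± 45.9 (n = 3) in HT, and it was above the next gene in 4 of 6 and 3 of 3 libraries. Bpifb3 came after Bpifa1, Obp1a and Obp2a in the means of both OSN groups, followed by Bpifb4, Bpifb6 and Bpifb1.

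**Figure D1:**
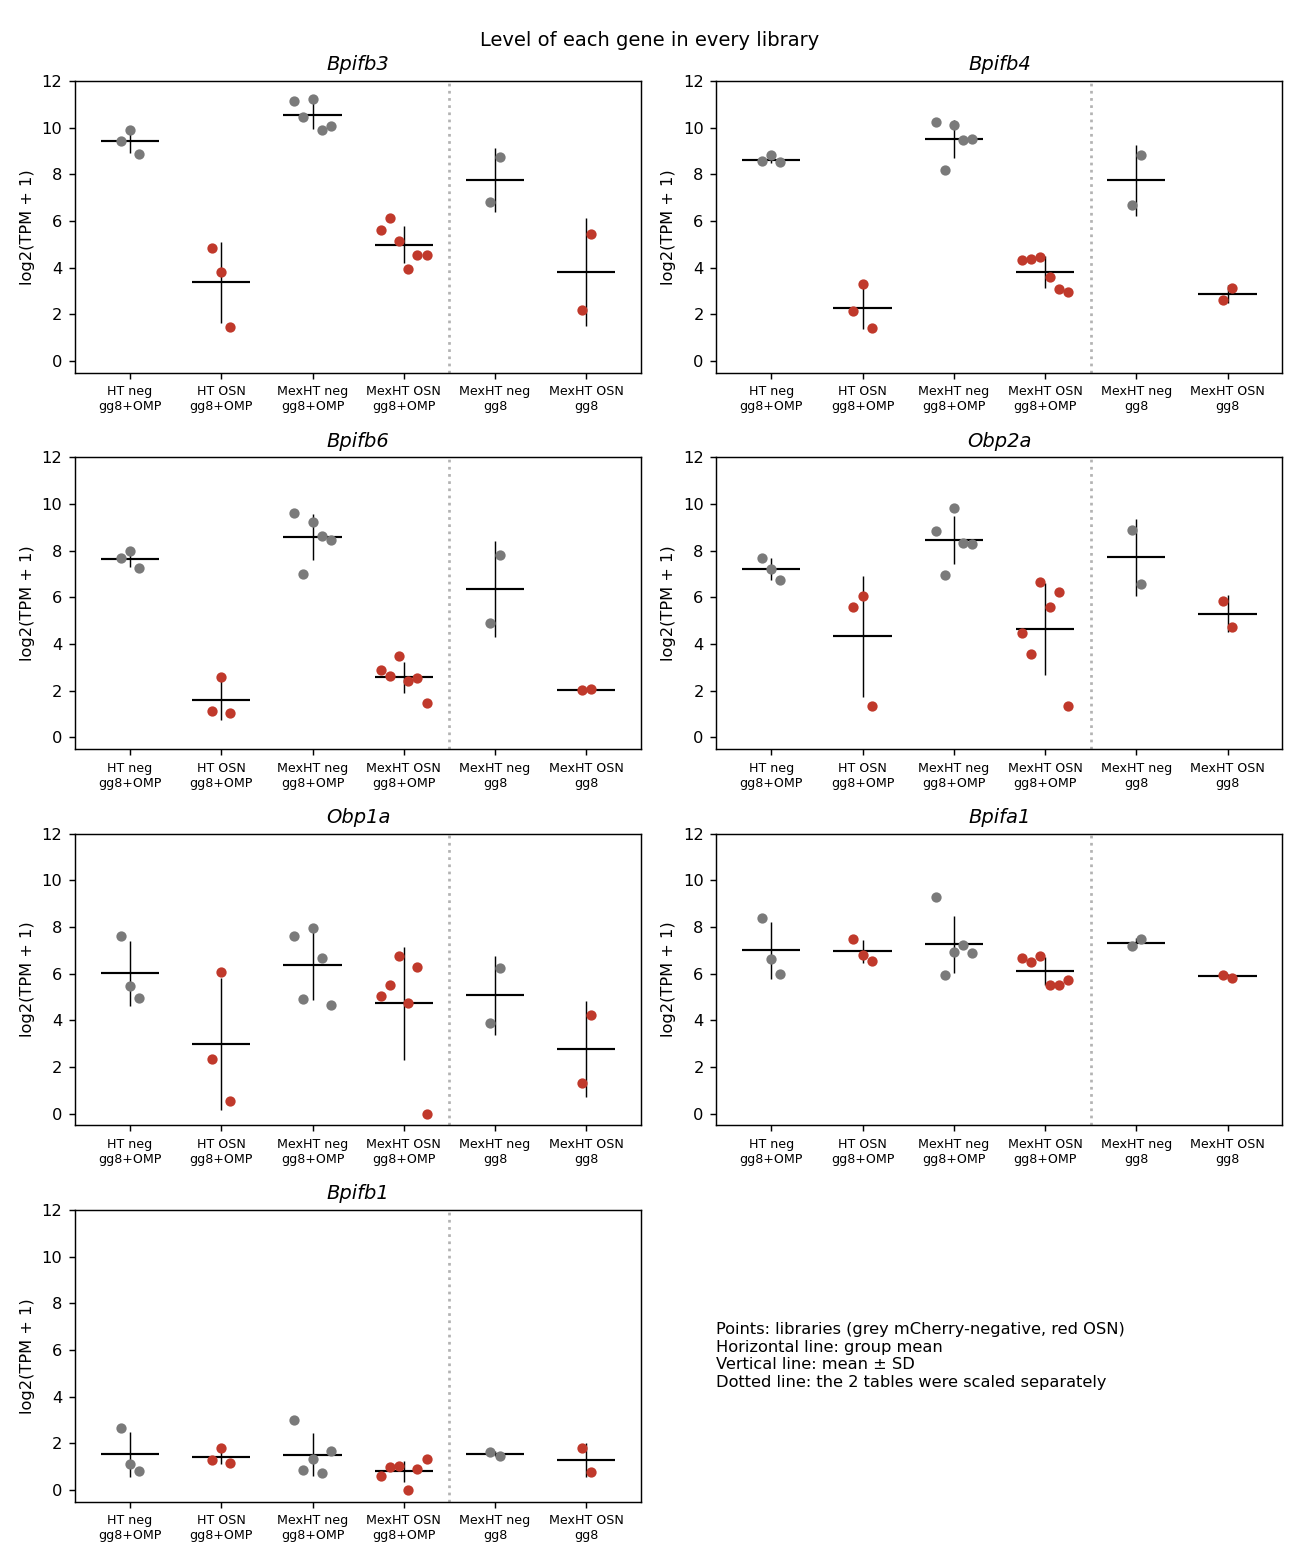
Level of the 7 genes in each library as log2(TPM + 1), by sorted group. Points are libraries (grey mCherry-negative, red OSN), horizontal lines are group means and vertical lines the mean ± SD. Bpifb3, Bpifb4 and Bpifb6 lie in separate ranges in the 2 fractions of each table, while the ranges of Bpifb1 overlap throughout.

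Bpifb3, Bpifb4 and Bpifb6 are long BPI-fold genes of the B subfamily, and they showed the widest separation of the fractions. Bpifb3 stood at 2262, 1413, 2408, 945.2 and 1077 TPM in the MexHT mCherry-negative libraries 1 to 5, which placed it between the 17th and the 92nd most abundant gene of a library. In MexHT OSN it ranged from 14.5 to 68.3 TPM with a median of 28.4. The groups did not overlap, and the difference in log2(TPM + 1) was -5.58 (SE 0.38, limma adjusted p = 1.02e-07), a factor of 47.7. In HT mice Bpifb3 stood at 693.1, 962.2 and 474.8 TPM in mCherry-negative and at 27.5, 13 and 1.77 TPM in OSN libraries. These groups were also apart, by -6.05 (SE 0.8, limma adjusted p = 0.00613).

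Bpifb4 had 1212, 291.5, 1120, 711.8 and 738.9 TPM in MexHT mCherry-negative libraries. Its MexHT OSN levels ran from 6.78 to 20.8 TPM around a median of 15.2. The second mouse had the lowest mCherry-negative value, and its OSN library held 6.82% of that level, the highest share among these 5 mice. The log2 difference was -5.71 (SE 0.39, limma adjusted p = 1.07e-07). In HT, Bpifb4 had 375.4, 448.5 and 365.1 TPM in mCherry-negative and 3.46, 8.74 and 1.69 TPM in OSN libraries. That difference of -6.34 (SE 0.43, limma adjusted p = 0.00217) ranked 8th lowest among 17027 genes tested.

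Bpifb6, the first of the 3 neighbours, had 773.2, 127.8, 593.5, 394.4 and 348.2 TPM in MexHT mCherry-negative libraries. In MexHT OSN it lay between 1.77 and 10.2 TPM with a median of 5.02, and this difference of -6.01 (SE 0.43, limma adjusted p = 1.71e-07) ranked 20th lowest among 16522 genes. In HT it had 202.7, 254.3 and 153.2 TPM in mCherry-negative and 1.18, 4.95 and 1.07 TPM in OSN libraries. The groups were apart by -6.06 (SE 0.43, limma adjusted p = 0.00217). The OSN values rest on few molecules: Bpifb6 had 5 to 29 recovered counts in the HT OSN libraries.

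Beside these 3 genes, the connective tissue and basal cell lists moved the same way. All 6 connective tissue and vessel genes were called lower in MexHT OSN than in MexHT mCherry-negative cells and 5 of 6 in HT, with list medians of -5.61 and -6.28 against medians of 0.16 and 0.1 over all genes. All 5 basal cell genes were called lower in both constructs, with medians of -4.04 and -3.07. Of all genes tested 27.6% were called lower in MexHT and 9.11% in HT. The part of these connective tissue and basal cells in the levels of Bpifb3, Bpifb4 and Bpifb6 was not tested.

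Obp2a, a lipocalin of the odorant-binding kind, had 455.9, 123.4, 904.4, 324 and 307.3 TPM in MexHT mCherry-negative libraries. In MexHT OSN it ran from 1.55 to 100.8 TPM with a median of 34.4. All 6 OSN libraries were below all mCherry-negative libraries, by -3.80 on the log2(TPM + 1) scale (SE 0.84, limma adjusted p = 0.00169). In HT the mCherry-negative libraries had 202.7, 146.3 and 104.7 TPM and the OSN libraries 46.6, 66.6 and 1.51 TPM. The HT groups were also apart, but the difference of -2.87 (SE 1.18) had an adjusted p of 0.14 in limma. With the mouse as a block, its adjusted p was 0.0464 in limma. That fit called 15.9% of all genes lower, against 9.11% without the block.

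Obp1a, the X-linked odorant-binding protein, had 195.2, 29.5, 248.5, 102.6 and 24.4 TPM in MexHT mCherry-negative libraries, and 0 to 108.3 TPM with a median of 38 in MexHT OSN. The groups overlapped, and the difference of -1.65 (SE 1.07) was not called (limma adjusted p = 0.195). HT mCherry-negative libraries had 194, 43.5 and 30.5 TPM and HT OSN libraries 4.09, 66.1 and 0.473 TPM, a difference of -3.03 (SE 1.39, limma adjusted p = 0.172). MexHT OSN library 6 held no count of Obp1a, where 3 counts would be 1.46 TPM, and 3 counts of Obp2a. Obp1a was higher in OSN than in the mCherry-negative cells of the same mouse in MexHT mice 2 and 5 and in HT mouse 2.

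Bpifa1, also called SPLUNC1, is a short BPI-fold protein of airway and nasal secretions. It had 624.2, 61.4, 119.7, 148.2 and 117 TPM in MexHT mCherry-negative and 44.6 to 106 TPM in MexHT OSN libraries, with a median of 71.5. The first mCherry-negative library was far above the other 4, and the second lay within the range of the OSN libraries. The difference of -1.14 (SE 0.48) did not pass the threshold (limma adjusted p = 0.0555). It passed with the mouse as a block, which leaves out MexHT OSN library 6 for want of a partner (-1.06, adjusted p = 0.0403), and without MexHT mCherry-negative replicate 2 (-1.46, adjusted p = 0.0161). In HT the mCherry-negative libraries had 330.1, 98.5 and 62.8 TPM and the OSN libraries 179.9, 111.3 and 92.7 TPM, which overlapped. The HT difference was -0.05 with a 95% interval of -1.45 to 1.36 (limma adjusted p = 0.962).

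Bpifb1, a long BPI-fold protein of the airway, was close to the limit of what the depth could show. It had 7.04, 0.796, 1.49, 0.667 and 2.16 TPM in MexHT mCherry-negative and 0 to 1.5 TPM in MexHT OSN libraries. In HT it had 5.28, 1.14 and 0.784 TPM against 1.48, 2.49 and 1.25 TPM in OSN. These are at most 42 recovered counts, and 3 counts were worth 0.425 to 0.701 TPM in the gg8+OMP libraries. Neither difference was called, with -0.71 in MexHT (SE 0.39, limma adjusted p = 0.129) and -0.10 in HT (SE 0.52, limma adjusted p = 0.91).

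In all, 4 of the 7 genes were called lower in MexHT OSN than in MexHT mCherry-negative cells (Bpifb3, Bpifb4, Bpifb6 and Obp2a), where 27.6% of all genes tested were called lower and 63.4% were called in either direction. The same 4 were the genes whose MexHT groups did not overlap, against 19.6% of all genes in that direction. In HT 3 of 7 were called lower (Bpifb3, Bpifb4 and Bpifb6), where 9.11% of all genes tested were called lower and 11.3% in either direction. The HT groups did not overlap for these 3 and for Obp2a, against 18% of all genes in that direction. No gene of the 7 was called higher in OSN in either construct. The comparison of fractions asks which transcripts the mCherry-positive neurons hold relative to the other cells of the same mice.

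**Figure D2:**
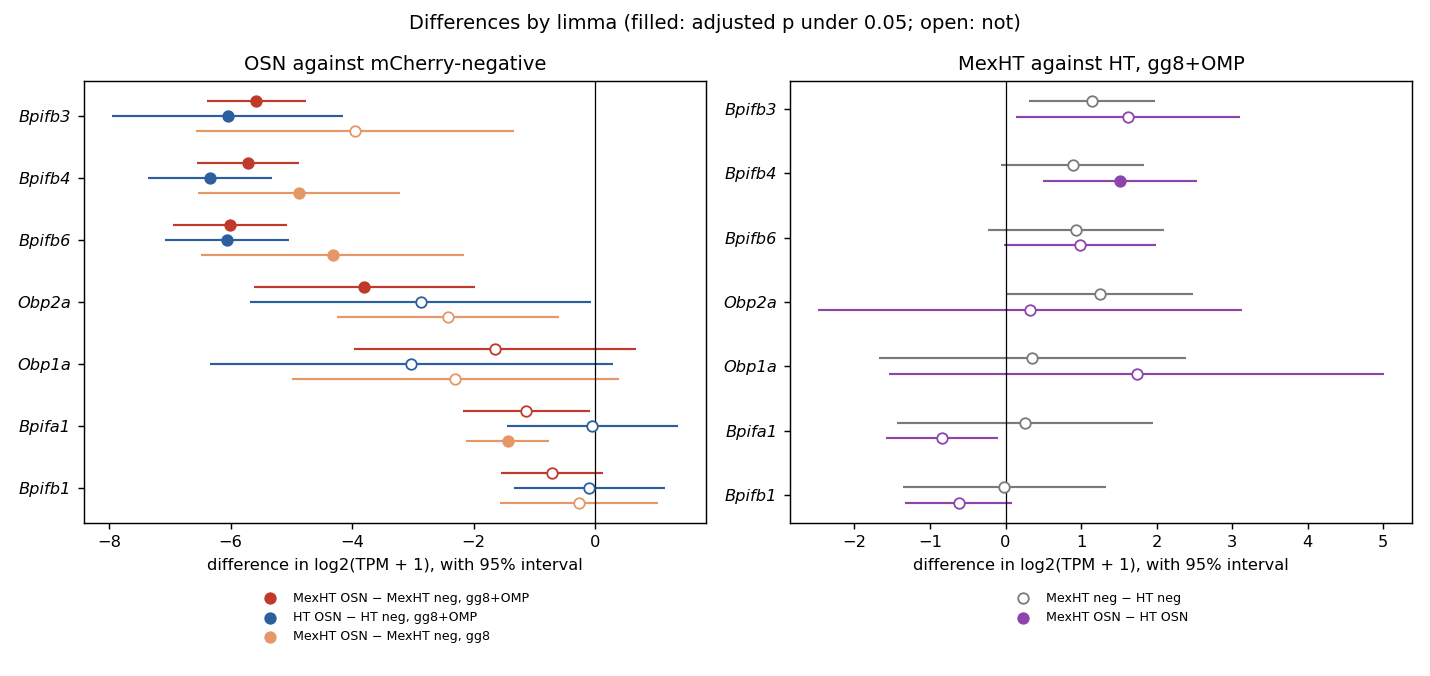
Differences in log2(TPM + 1) with 95% intervals from limma, OSN minus mCherry-negative on the left and MexHT minus HT on the right; filled points have an adjusted p under 0.05. Bpifb3, Bpifb4 and Bpifb6 lie between -6.34 and -3.95 on the left, and Bpifb4 in OSN is the filled point on the right.

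The ratio within a mouse, as labelled, could be formed for 10 numbered pairs over both tables. Bpifb3, Bpifb4, Bpifb6 and Obp2a were lower in OSN in 10 of 10 mice. The OSN level was 0.372% to 10.1% of the mCherry-negative level for Bpifb3, with a median of 2.1%. It was 0.463% to 6.82% for Bpifb4 with a median of 1.67%, and 0.583% to 10.5% for Bpifb6 with a median of 1.4%. For Obp2a it was 1.44% to 45.5%, with a median of 13.4%. Obp1a and Bpifa1 were lower in OSN in 7 of 10 mice each, with medians of 24.2% and 48.5%. Bpifb1 was lower in 6 of 10.

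**Figure D3:**
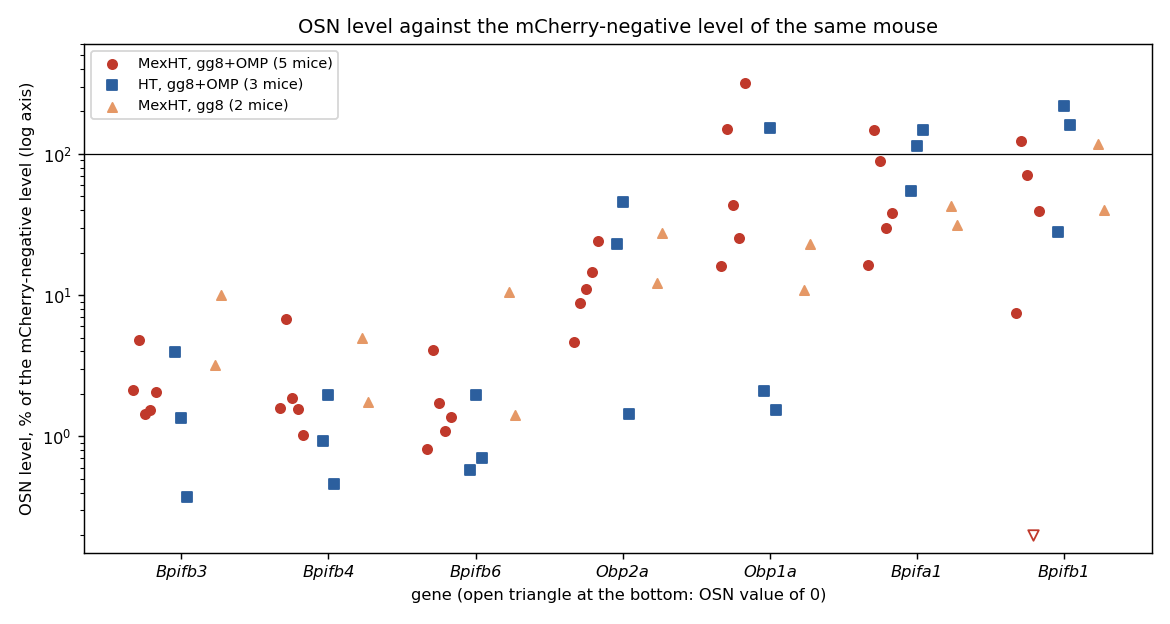
OSN level as a percentage of the mCherry-negative level of the same mouse, on a log axis, for each gene; each point is a mouse and the line marks 100%. Bpifb3, Bpifb4 and Bpifb6 stay at or below 10.5% in all 10 mice, and Obp1a spans 1.55% to 318%.

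With gg8tTA alone the same 3 neighbours were again low in OSN. Bpifb4 had 101.4 and 451.7 TPM in mCherry-negative and 5.07 and 7.85 TPM in OSN libraries, a difference of -4.88 (SE 0.69, limma adjusted p = 0.0214). Bpifb6 had 28.9 and 224.5 against 3.05 and 3.2 TPM (-4.32, SE 0.9, limma adjusted p = 0.0402). Bpifb3 had 110.9 and 426.7 against 3.57 and 43 TPM, and its difference of -3.95 was not called (SE 1.09, limma adjusted p = 0.0726). Bpifa1 had 143.7 and 178.4 against 61.1 and 55.7 TPM, and this difference of -1.44 was called (SE 0.29, limma adjusted p = 0.0358). Obp2a had 468.5 and 93 against 57 and 25.6 TPM, Obp1a 13.6 and 75.9 against 1.49 and 17.6 TPM, and Bpifb1 2.11 and 1.78 against 2.47 and 0.719 TPM, none of them called.

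Thus 3 of 7 genes were called lower in this table, where 7.2% of all genes tested were. The groups did not overlap for 5 of 7, all but Obp1a and Bpifb1, against 30.2% of all genes in that direction. With the mouse as a block 6 of 7 were called lower, all but Bpifb1, where that fit called 7.99% of all genes lower, with adjusted p-values of 0.00519 for Bpifb3, 0.0166 for Obp2a and 0.0373 for Obp1a. The 3 calls rest on 2 libraries a group, with 2 residual degrees of freedom. The calls with the block rest on the same libraries and on fewer residual degrees of freedom still. With pseudocount 0.1 or with voom on recovered counts Bpifb4 alone was called, and no gene was called when MexHT mCherry-negative replicate 1, MexHT mCherry-negative replicate 2 or MexHT OSN replicate 2 of this table was left out. Here 9 of 12 mature OSN genes were also called lower in OSN, as were all 6 connective tissue and vessel genes; their part in these differences was not tested.

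The comparison of MexHT with HT sets mice carrying Mex3a joined to the editing domain against mice carrying the editing domain alone. The mCherry-negative cells did not carry mCherry, so differences among them do not by themselves measure an effect of the fusion. Mex3a averaged 121.6 TPM ± 56.7 (n = 5) in MexHT and 54 ± 22.8 (n = 3) in HT mCherry-negative libraries. The part of the fusion in the differences below was not tested. Among mCherry-negative cells 4 of the 7 genes had point estimates near or above a doubling in MexHT. Obp2a differed by 1.25 (95% interval 0.01 to 2.48), Bpifb3 by 1.15 (0.31 to 1.98), Bpifb6 by 0.93 (-0.23 to 2.10) and Bpifb4 by 0.89 (-0.06 to 1.83). The groups overlapped for each of the 7 genes, where 8.71% of all genes tested did not overlap in either direction: HT reached 962.2 TPM of Bpifb3, above the lowest MexHT value of 945.2, and 448.5 TPM of Bpifb4, above the lowest MexHT value of 291.5. Obp1a differed by 0.36 (-1.67 to 2.38), Bpifa1 by 0.25 (-1.44 to 1.95) and Bpifb1 by -0.01 (-1.36 to 1.33).

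None of the 7 was called between the mCherry-negative groups (limma adjusted p from 0.218 for Bpifb3 to 0.991 for Bpifb1). The background was 0%, since limma called no gene among 16860, although 3465 had an unadjusted p under 0.05. Bpifb3 and Obp2a were the 2 members among those, with unadjusted p-values of 0.0125 and 0.048 in limma. Voom on recovered counts also called none of the 7. No gland cell gene was called either, and their median difference was 0.55. The medians of the cell type lists ran from -1.63 for mature OSN genes (-2.38 to -1.13) to 0.82 for basal cell genes. The part of such shifts in the levels of the 7 genes was not tested. Xist ranged from 55.27 to 162.5 TPM in the MexHT mCherry-negative libraries and stood at 0.09, 76.54 and 0.13 TPM in HT mCherry-negative. Xist level and construct thus largely went together in this comparison and cannot be told apart.

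Among OSN, Bpifb4 was the 1 member called. It stood at 14.3 TPM ± 6.49 (n = 6) in MexHT OSN and 4.63 ± 3.67 (n = 3) in HT OSN, a log2 difference of 1.52 (SE 0.46, limma adjusted p = 0.0267). The groups overlapped, since HT OSN library 2 had 8.74 TPM and the lowest MexHT OSN library 6.78. In this comparison 36.8% of all genes were called, and 19.9% were called higher. The call was lost with voom (adjusted p = 0.0577), without HT OSN replicate 1 (1.45, adjusted p = 0.0874) and without HT OSN replicate 3 (1.09, adjusted p = 0.115). With the Xist level as a covariate the difference was 0.55 (adjusted p = 0.691). Xist ranged from 58.35 to 139.76 TPM in the MexHT OSN libraries and stood at 0.13, 60.3 and 0.14 TPM in HT OSN. Xist level and construct thus largely went together, so this fit cannot tell them apart. The libraries also differed in which sex-linked transcripts they held: 6 of the 21 had Y-linked transcripts without Xist at 1 TPM and 1 had Xist alone.

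Bpifb3 (1.62, SE 0.67, limma adjusted p = 0.0816) and Bpifb6 (0.99, SE 0.45, limma adjusted p = 0.11) had estimates on the same side in OSN without passing. Bpifa1 had the opposite sign (-0.84, SE 0.33, limma adjusted p = 0.0735) and so had Bpifb1 (-0.62, SE 0.32, limma adjusted p = 0.149). Bpifa1 passed with voom (-0.92, adjusted p = 0.0491). The intervals of Obp1a (-1.54 to 5.01) and Obp2a (-2.48 to 3.12) were wide. In the same OSN libraries 10 of 10 immature OSN genes were called higher in MexHT, against 19.9% of all genes. Of the mature OSN genes 10 of 12 and of the immune cell genes 8 of 10 were called lower, against 16.8% of all genes. Their part in the Bpifb4 difference was not tested.

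Whether the difference between fractions depended on the construct was tested by the interaction over the 17 gg8+OMP libraries. None of the 7 genes was called, where 12.4% of all genes tested were. The interaction was 0.05 for Bpifb6 (95% interval -1.45 to 1.55), 0.47 for Bpifb3 (-1.31 to 2.25) and 0.63 for Bpifb4 (-0.76 to 2.02). It was -1.09 for Bpifa1 (-2.88 to 0.70), -0.61 for Bpifb1 (-2.04 to 0.83), -0.92 for Obp2a (-4.19 to 2.35) and 1.38 for Obp1a (-2.68 to 5.44). A dependence of a size within these intervals remains compatible with the data.

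Along the Bpif cluster the levels changed from gene to gene. In MexHT mCherry-negative libraries 4 of the 13 genes reached a mean of 100 TPM (Bpifb6, Bpifb3, Bpifb4 and Bpifa1) and 4 stayed under 1 TPM. Bpifb2, just before Bpifb6, had a mean of 0.0701 TPM, and Bpifa6, just after Bpifb4, 0.185 TPM. The 3 abundant neighbours thus lay between family members at under 1 TPM. Bpifa1 at 214.1 TPM likewise lay between Bpifa3, listed at 0, and Bpifa5 at 0.277 TPM. At the far end Bpifb9a and Bpifb9b averaged 18 TPM ± 14.8 and 73.8 ± 58.5 (n = 5) in MexHT mCherry-negative libraries. In HT mCherry-negative libraries they averaged 58.6 ± 58.8 and 198.1 ± 217 (n = 3), the opposite order of constructs from Bpifb3, Bpifb4 and Bpifb6. The constructs overlapped for both genes: HT ran from 7.39 to 122.8 and 23.4 to 440.9 TPM, MexHT from 3.3 to 41.6 and 17.3 to 160.7 TPM. Neither gene was called between the constructs.

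**Figure D4:**
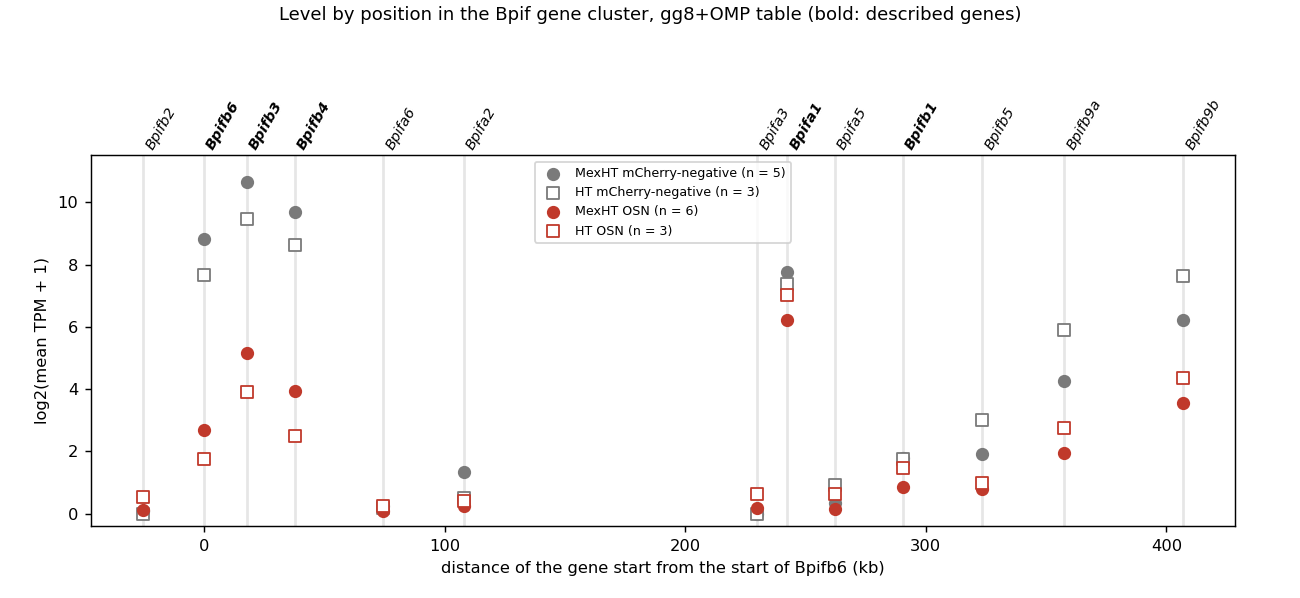
Mean level, as log2(mean TPM + 1), of the 13 genes of the Bpif cluster by the distance of their start from the start of Bpifb6 in kb, for the 4 gg8+OMP groups. The block Bpifb6, Bpifb3 and Bpifb4 is high in both mCherry-negative groups (203.4 to 1621 TPM) and low in both OSN groups (2.4 to 35 TPM), while Bpifa1 stays above 73 TPM in all 4.

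The 7 genes did not vary as one unit from library to library. Over the 8 mCherry-negative gg8+OMP libraries, which share 1 table but differ in construct, 21 pairs were compared on log2(TPM + 1) with exact permutation tests. Bpifb4 and Bpifb6 followed each other most closely (Pearson r = 0.985, permutation p = 4.96e-05, adjusted 0.00104; Spearman rho = 0.976, permutation p = 0.000397, adjusted 0.00833), and r was 0.965 without the 2 libraries farthest from the median and 0.982 within construct. Obp2a followed Bpifb4 (r = 0.917, permutation p = 0.00184, adjusted 0.0193; rho = 0.905, permutation p = 0.00456, adjusted 0.0319) and Bpifb6 (r = 0.898, permutation p = 0.00288, adjusted 0.0201; rho = 0.929, permutation p = 0.00223, adjusted 0.0234). Without the 2 farthest libraries these were 0.878 and 0.943, and within construct 0.869 and 0.856. Obp2a lies outside the Bpif cluster.

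Bpifb3, which lies between Bpifb6 and Bpifb4, followed them less closely. Its r was 0.701 with Bpifb4 (permutation p = 0.0571, adjusted 0.133; rho = 0.595, permutation p = 0.132) and 0.139 without the 2 farthest libraries. Bpifa1 and Bpifb1 had r = 0.909 (permutation p = 0.00563, adjusted 0.0296) but rho = 0.595 (permutation p = 0.132, adjusted 0.232). Without the 2 farthest libraries it was 0.355, so this relation rests on them. Both genes were highest in MexHT mCherry-negative library 1 and HT mCherry-negative library 1. The other 16 pairs had adjusted permutation p-values of at least 0.125 for r.

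**Figure D5:**
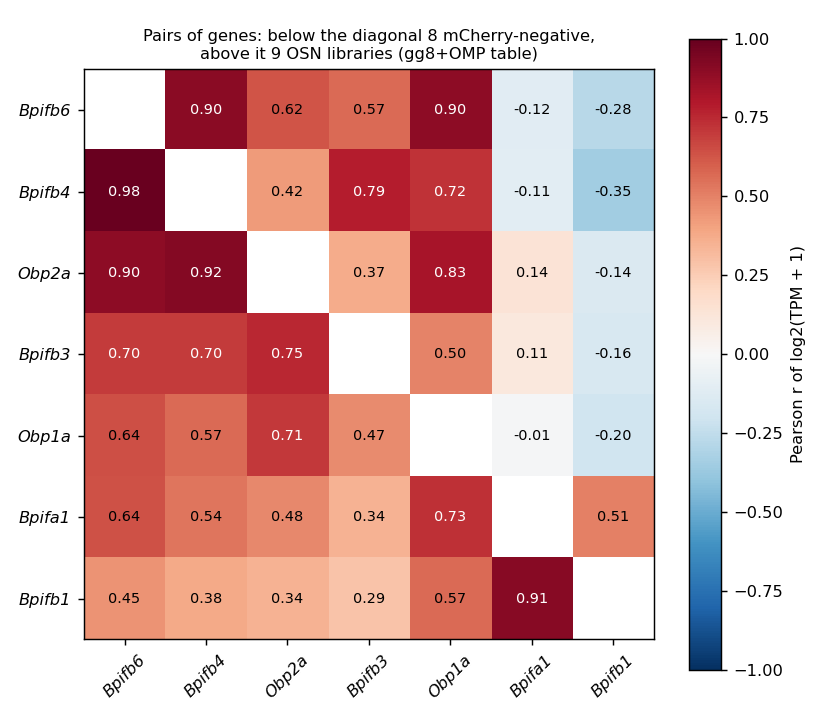
Pearson r of log2(TPM + 1) for each pair of the 7 genes, over the 8 mCherry-negative libraries below the diagonal and over the 9 OSN libraries above it. Bpifb4 and Bpifb6 have 0.985 below and 0.903 above, and Bpifa1 and Bpifb1 stand apart from the others in OSN.

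In the 9 OSN libraries, given as a description, Bpifb4 and Bpifb6 had r = 0.903, and Obp1a and Obp2a r = 0.828. Among the MexHT OSN libraries Obp1a and Obp2a were both lowest in library 6, and among the HT OSN libraries both in library 3. HT OSN library 3 was also the lowest HT OSN library for Bpifb3, Bpifb4 and Bpifb6.

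The genes with the most similar pattern were sought among 12767 genes whose mean reached 5 TPM over the 8 mCherry-negative libraries, by Pearson r. For Bpifb3 they were Tac4 (r = 0.985, rho = 0.929), a tachykinin precursor, Scgb1c1 (0.969, rho = 0.976), a secretoglobin, and Tnip3 (0.966, rho = 0.833). Over the 9 OSN libraries their r with Bpifb3 was 0.593, 0.854 and -0.20. Scgb1c1 had means of 1794 TPM in mCherry-negative and 101.1 in OSN libraries. For Bpifb4 they were Clu (0.958), the chaperone clusterin, Pthlh (0.95) and Erc2 (0.947), and for Bpifb6 Clu (0.949), Pthlh (0.949) and Slc41a1 (0.941). In OSN the r of Clu, Pthlh and Erc2 with Bpifb4 was -0.05, -0.08 and 0.702, and that of Clu, Pthlh and Slc41a1 with Bpifb6 was -0.19, 0.066 and 0.615. For Obp1a they were the mucin Muc4 (0.972) and the lipocalins Lcn11 (0.938) and Mup5 (0.931), and in OSN their r was -0.46, 0.896 and 0.885. For Obp2a they were Arid5b (0.923), Arf2 (0.923) and its neighbour Obp2b (0.919), and in OSN their r was -0.55, 0.291 and 0.88.

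Bpifa1 and Bpifb1 resembled other genes. The closest to Bpifa1 were Uqcr11 (r = 0.97), a subunit of a mitochondrial complex, Krt80 (0.964) and AV051173 (0.963). The closest to Bpifb1 were the small RNA genes Snord8 (0.968) and Rprl3 (0.94), and Uqcr11 (0.943). In OSN the r of Uqcr11, Krt80 and AV051173 with Bpifa1 was -0.45, 0.659 and 0.262, and that of Snord8, Rprl3 and Uqcr11 with Bpifb1 was -0.61, -0.48 and -0.43. No test was attached to these lists, which are descriptions over 8 libraries of 1 table.

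Relatives of the 7 genes were read from fixed lists. Of 12 other BPI-fold genes 5 passed the filter of a mean of 1 TPM in MexHT, and 4 of them were called lower in MexHT OSN than in mCherry-negative cells, with a list median of -2.75. Lbp, the lipopolysaccharide-binding protein, went from 32.3 TPM ± 3.56 (n = 5) to 0.917 ± 0.517 (n = 6). Pltp, the phospholipid transfer protein, went from 54.9 ± 23.6 to 7.04 ± 2.1 TPM, and Bpifb9b from 73.8 ± 58.5 to 10.7 ± 9.64 TPM. In HT 1 of 5 was called lower, Lbp (-2.86, SE 0.47, limma adjusted p = 0.0124), and with gg8tTA alone likewise Lbp (-2.19, SE 0.49, limma adjusted p = 0.0459). Over all genes tested, 27.6% were called lower in MexHT, 9.11% in HT and 7.2% with gg8tTA alone.

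Of 23 other lipocalins 20 had a row in the gg8+OMP table. In MexHT 12 were tested and 9 called lower in OSN (median -2.82), in HT 7 of 13 (median -2.57), and with gg8tTA alone 5 of 10 (median -2.18). The shares of all genes called lower were 27.6%, 9.11% and 7.2%. Lcn2, the siderophore-binding lipocalin of innate defence, was at 998.9 TPM ± 192.7 (n = 5) in MexHT mCherry-negative and 12.7 ± 7.38 (n = 6) in MexHT OSN. Obp2b went from 334.5 ± 212 to 27 ± 25.9 TPM, close to Obp2a with 423 ± 294 and 42.7 ± 38.9. Lcn3 went from 220.3 ± 127 to 8.97 ± 7.61 TPM, and Ptgds, which makes prostaglandin D and carries lipids, from 72 ± 52.3 to 5.08 ± 4.29.

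Other gland and airway secretions were called lower in OSN in 14 of 20 tested genes in MexHT and 7 of 19 in HT. The medians were -2.09 and -0.64, and 27.6% and 9.11% of all genes were called lower. Ltf, the iron-binding lactotransferrin, went from 1291 TPM ± 179.1 (n = 5) to 31.1 ± 12 (n = 6), and Scgb1c1 from 2269 ± 1060 to 105.9 ± 40.7. Dmbt1, a mucosal scavenger receptor protein, went from 114.6 ± 74.5 to 2.5 ± 2.09 TPM, and the protease inhibitor Slpi from 55 ± 16.1 to 0.907 ± 0.712. The 2 called higher in MexHT OSN were Dnase1 (1.02, SE 0.2, limma adjusted p = 0.000666) and Lpo (0.74, SE 0.21, limma adjusted p = 0.00772), named after their values were seen. Lpo had few counts: it averaged 0.547 TPM ± 0.319 (2 to 11 recovered counts) in MexHT mCherry-negative libraries. In MexHT OSN it averaged 1.59 ± 0.556 TPM (8 to 23 recovered counts). Of all genes tested 35.8% were called higher there. In HT OSN 1 gene of this list was called higher, again Dnase1 (0.695, SE 0.16, limma adjusted p = 0.0404), against 2.18% of all genes. Of the 10 immune cell genes 8 were called lower and 1 higher in MexHT OSN. Elane of that list averaged 572.5 TPM ± 171.8 in MexHT mCherry-negative and 2.63 ± 0.824 in MexHT OSN libraries. The part of immune cells in the levels of Ltf and Lcn2 was not tested.

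Genes of the gland cell list were called lower in OSN in 10 of 11 in MexHT, 7 of 11 in HT and 5 of 11 with gg8tTA alone. Their medians were -2.77, -1.69 and -1.93, and the shares of all genes called lower were 27.6%, 9.11% and 7.2%. Sox9, a transcription factor of Bowman's glands and ducts, went from 51.6 TPM ± 20.2 (n = 5) to 3.32 ± 0.717 (n = 6) in MexHT and from 35 ± 14.4 to 2.57 ± 1.42 (n = 3 each) in HT. The chloride channel gene Ano1 went from 34.6 ± 6.61 to 2.51 ± 0.51 TPM in MexHT, and the tight junction gene Cldn10 from 25.2 ± 10.3 to 1.21 ± 0.773. Creb3l1, a transcription factor of secretory cells, went from 128.8 ± 27.5 to 13.5 ± 5.17 TPM in MexHT, while in HT it had 146.1 ± 12.6 and 103.1 ± 29.4 TPM and was not called (-0.54, SE 0.22, limma adjusted p = 0.144). Spdef was the 1 gland cell gene not called in MexHT (0.23, SE 0.33, limma adjusted p = 0.567). Of the 8 sustentacular genes, 2 were called lower in MexHT and none was called in HT.

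Between MexHT OSN and HT OSN 36.8% of all genes tested were called. In the lists it was 1 of 4 other BPI-fold genes, 1 of 11 lipocalins, 2 of 17 other secretions and 2 of 11 gland cell genes. Pltp was lower in MexHT OSN at 7.04 TPM ± 2.1 (n = 6) against 29.5 ± 23.2 (n = 3; -1.71, SE 0.38, limma adjusted p = 0.00695), and Orm2, an acute-phase lipocalin, at 9.58 ± 3.84 against 26.3 ± 4.61 (-1.42, SE 0.27, limma adjusted p = 0.00317). Chil4, a chitinase-like secretion, was higher at 17.5 ± 14.6 against 2.52 ± 2.68 TPM (2.36, SE 0.66, limma adjusted p = 0.019). Creb3l1 (-2.88, SE 0.32, limma adjusted p = 0.000236) and Slc12a2 (-1.56, SE 0.17, limma adjusted p = 0.00022) were the 2 genes of the gland cell list called, both lower in MexHT OSN. In HT Slc12a2 had 449.5 TPM ± 35.5 in OSN and 362.5 ± 102 in mCherry-negative libraries (0.35, SE 0.23, limma adjusted p = 0.301) and was not called. Apart from Chil4, these genes were lower in MexHT OSN, where Bpifb4 was higher. Pltp (-1.88), Orm1 (-1.46) and Creb3l1 (-2.68) were called in the interaction, with limma adjusted p-values of 0.0377, 0.0386 and 0.00117. That fit called 12.4% of all genes.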

How the data were processed

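RNA was measured in cells sorted from mouse main olfactory epithelium after papain dissociation, with a low-input kit for stranded total RNA, per the labels' protocols. The authors deposited TPM values in 2 tables, 17 gg8+OMP and 4 gg8 libraries, each column scaled to the same sum. FastQC, cutadapt, STAR, bedtools and the build mm10 are named in the submitters' processing notes, without roles. The counting program, the annotation and the use of strand are not given in the sources used here. TPM holds no depth, but a gene's values were whole multiples of one step, which gave whole counts for 99.996% of 23614 genes (tolerance 0.001; 0% with wrong scales) and 99.86% of 22785 genes in the gg8 table. Rows with date-like names (27 a table, at most 0.221% of the TPM) were left out. Replicate libraries differed beyond counting error (chi-square per degree of freedom 3.3 to 113.8 over 33 pairs). No molecular identifiers are described, so floors of 3 counts cover counting error only.

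The 6 comparisons used limma (version 3.58.1, R 4.3.3; eBayes with a trend) on log2(TPM + 1), keeping genes that averaged 1 TPM or more across the fitted libraries, with Benjamini-Hochberg adjustment over these genes, a threshold of 0.05 and two-sided tests. All 7 genes passed this filter in all 6 comparisons. A fold on this scale understates the change of low genes. A gene "called" passed the threshold. Alternatives were pseudocount 0.1, no filter, median-of-ratios scaling, voom on recovered counts, the replicate block, all 4 groups in one fit, the Xist level as covariate and leaving out each replicate. The scripts were tested on simulated data. Same-numbered OSN and mCherry-negative libraries share a mouse, per the labels; pooling of mice was not settled here. Their deviations from the group means correlated by -0.113 to 0.421 in MexHT and 0.183 to 0.475 in HT. Between constructs the labels give no shared mouse; same-numbered mCherry-negative libraries correlated by 0.23 to 0.417 and OSN by -0.234 to 0.133. Pairs of genes were tested by exact permutation with scipy 1.17.1.

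From the lists of relatives, secretions and gland cells, up to 5 genes per comparison with the largest change among those called, at 5 TPM or more in the higher group, could be named, and the 3 genes most like each member by r. List genes named beyond this rule were picked with their values known. The members and lists were chosen with earlier results of these data known. Promoter sequences and positions are from RefSeq (GRCm38.p6, the build mm10), overlaps and transcripts from GENCODE vM21; all 7 genes matched by symbol. Editing sites were not analysed here.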

Additional observations from a re-analysis of the deposited data

Results flagged for a closer look

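Obp1a in MexHT OSN library 6 was the lowest of its group by a gap of 0.701 of the group's range on the log2(TPM + 1) scale, beyond Dixon's 95% critical value of 0.625 for 6 samples. It held no count, while the other 5 libraries ranged from 25.9 to 108.3 TPM. Obp2a was also lowest in this library, at 1.55 TPM. In all 14 combinations of gene and group were looked at, and chance marks about 1 group in 20.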

How the results depend on the processing

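Bpifb3, Bpifb4 and Bpifb6 stayed called lower in OSN in both constructs with the gg8+OMP drivers under every alternative run, leaving out each replicate included, and Obp2a in MexHT likewise; the count of called members stayed at 4 or 5 in MexHT and 3 or 4 in HT. None of the 7 was called between the mCherry-negative groups or in the interaction under any alternative run. With gg8tTA alone 3 members were called; the count was 1 with pseudocount 0.1, 1 with voom, and 0 to 2 when a replicate was left out, a fit in which the lone library is assumed to vary like the other group. For MexHT OSN against HT OSN the count of 1 became 2 with all 4 groups in one fit (Bpifb3, 1.62, limma adjusted p = 0.0391), 0 with the Xist level as covariate, and 0 to 2 when a replicate was left out. Some differences changed sign between fits, and not all of these were near 0. Without 1 replicate the range was -0.55 to 0.64 for Bpifa1 and -0.45 to 0.46 for Bpifb1 in HT OSN against HT mCherry-negative, -0.78 to 0.24 for Bpifb1 with gg8tTA alone, and -0.25 to 0.94 for Bpifa1, -0.39 to 0.55 for Bpifb1 and -0.17 to 1.15 for Obp1a between the mCherry-negative groups. It was -1.18 to 1.2 for Obp2a between the OSN groups, and -0.34 to 0.55 for Bpifb6 and -0.48 to 1.2 for Bpifb3 in the interaction. Bpifb1 between the mCherry-negative groups was 0.04 with voom and 0.82 with the Xist covariate, and the Bpifb6 interaction was -0.06 with median-of-ratios scaling. With the Xist covariate the OSN groups differed by -0.07 for Bpifb6, -1.66 for Obp1a and -1.76 for Obp2a. Without it these differences were 0.99, 1.73 and 0.32. Xist level and construct largely went together in these libraries, so this fit cannot tell them apart, and the cause was not tested.

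Over all genes the counts moved too. In HT OSN against HT mCherry-negative 1923 genes were called, 1038 with voom and 660 to 4183 without 1 replicate. With gg8tTA alone 1372 were called, 646 with pseudocount 0.1 and 0 to 3703 without 1 replicate. Between the mCherry-negative groups 0 were called, 1 without the filter, 23 with all 4 groups in one fit and up to 4 without 1 replicate. Between the OSN groups 5907 were called, 329 with the Xist covariate and 3745 at the lowest without 1 replicate. The interaction had 2086, and 1195 without HT mCherry-negative replicate 2.

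With the replicate block the called members were 5 in MexHT (Bpifa1 added) and 4 in HT (Obp2a added) for OSN against mCherry-negative, and 6 with gg8tTA alone. In these fits 27.6%, 15.9% and 7.99% of all genes were called lower, against 27.6%, 9.11% and 7.2% without the block. In HT the block called 4967 genes in all. Between constructs, where the OSN libraries share only a number, the block called 2 members in OSN (Bpifb4 and Bpifb3, the latter at 2.26, limma adjusted p = 0.0381), and not every library correlated best with its own number. Between the mCherry-negative groups, whose same-numbered libraries all did, the block called none, and Bpifb1 was 0.2. It changed no other call of a member. Depth limits Bpifb1 most, which had at most 42 recovered counts in the gg8+OMP table. In single OSN libraries Bpifb3, Bpifb6, Obp1a and Obp2a were also under 10 recovered counts, while Bpifa1 had 123 or more in each MexHT OSN library with both drivers.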
